A study of Mus musculus with 12 samples.

Results

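Rab GTPases are small GTP-binding proteins of the Ras superfamily that were examined here across mouse colon tumours and the colon next to them. Members were the protein-coding genes whose symbol is Rab followed by a number, with an optional letter, and 59 of the 48448 genes in the expression table met that rule. The table came from 12 RNA-seq libraries, 3 in each of 4 groups, made from C57BL/6 mice in a model of cancer that follows colitis. Adjacent colon and tumours were taken from Synbindinflox mice (called flox below), which carry a floxed Synbindin allele and served as controls, and from SynbindinΔIEC mice (called ΔIEC), in which Synbindin is deleted in intestinal epithelial cells. All 12 libraries share the strain and the cancer model. The sources used here do not give the promoter that drives the recombinase, the ages of the mice or the agents that induced the tumours. The series title speaks of scraped epithelium whereas the protocol speaks of dissected tumours and adjacent tissue, and nothing says that libraries of a group came from separate animals, so a p-value below reflects only how far these libraries scatter, which may be technical.

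Each Rab cycles between a GDP-bound form in the cytosol and a GTP-bound form on a membrane, where it recruits effectors that move, tether or fuse vesicles. Exchange factors switch a Rab on, GTPase-activating proteins switch it off, and a prenyl group added by a dedicated transferase holds it on its membrane. In the colon, recycling Rabs deliver proteins to the apical and basolateral surfaces of the epithelium, and granule Rabs serve mucus, hormone and leukocyte secretion. Synbindin, encoded by Trappc4, belongs to the TRAPP complexes, which act as exchange factors for Rab1 proteins on the way from the endoplasmic reticulum to the Golgi.

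The deposited unit was log2(FPKM + 1) per transcript, where FPKM is a fragment count divided by transcript length and library size. Values were converted back to FPKM and summed per gene. FPKM keeps no read depth, so the depth of sequencing is unknown. The 12 libraries summed to 534806 to 821487 FPKM. The Rab genes together made up 1489 to 1765 FPKM in adjacent libraries and 1262 to 1459 in tumours. As a share of the FPKM of protein-coding genes the order was the opposite, at 0.301% to 0.345% in adjacent libraries and 0.349% to 0.374% in tumours. For that reason every tumour difference below is given on the deposited scale and, where it matters, after protein-coding genes were rescaled to the same total in each library. On the log2(FPKM + 1) scale, the median tumour-minus-adjacent difference of the 16970 genes tested below was -0.01 in flox and -0.03 in ΔIEC mice. After rescaling, only the 13325 protein-coding genes among them were fitted, and their medians were 0.39 and 0.26. The medians before and after rescaling thus cover different sets of genes.

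Trappc4 itself was lower in the libraries labelled ΔIEC. It ranged from 16.8 to 17.4 FPKM in flox adjacent and from 10.2 to 12.6 in ΔIEC adjacent libraries, and from 17.5 to 20.9 in flox and from 9.91 to 12.7 in ΔIEC tumours. The ΔIEC means were 64.9% and 59.6% of the flox means, with no overlap of the groups and an exact two-sided permutation p of 0.1 in each tissue, the smallest that 3 against 3 libraries allow. In the fit across all genes used below, the Trappc4 differences were -0.59 ± 0.115 and -0.70 ± 0.115 on the log2(FPKM + 1) scale, with unadjusted limma p of 4.31e-04 and 1.04e-04 and adjusted p of 0.931 and 1. The deleted gene was thus not called either, and a count of 0 between genotypes below does not show that levels were alike.

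All 59 Rab genes were above 0 in at least 1 library, and 29 had a mean of at least 10 FPKM over the 12 libraries. The median gene had a mean of 9.58 FPKM. The highest were Rab11a, a recycling-endosome Rab, at 182 FPKM, then Rab1a, Rab7 and Rab25, each with a mean of at least 100 FPKM. The 5 highest genes held 39.8% of the summed Rab FPKM. By role, recycling and apical or basolateral Rabs held 34.4% of the summed level, Rabs of the endoplasmic reticulum and Golgi 24.4%, early endosomal Rabs 20.9%, late endosomal and lysosomal Rabs 10.2% and secretory granule Rabs 6.39%. Rabs of the cilium, of lysosome-related organelles and with a SOCS box held 1.65%, 1.50% and 0.649%.

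**Figure D1:**
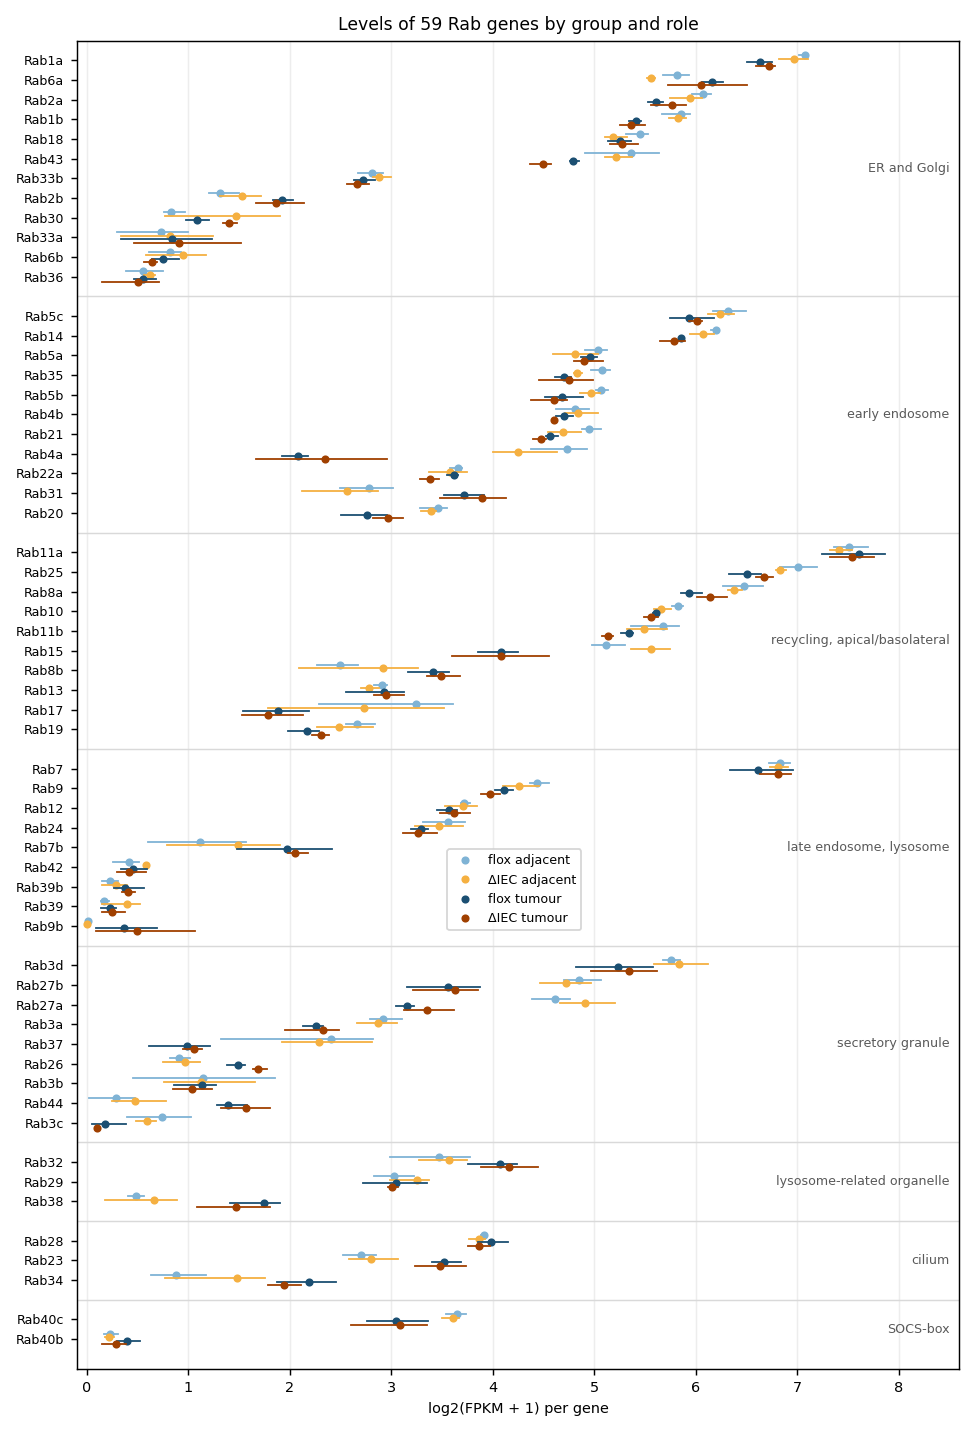
Levels of the 59 Rab genes on the log2(FPKM + 1) scale (x axis), grouped by role and ordered by mean level; points are the mean of 3 libraries of a group and lines run from the lowest to the highest library. Rab11a, Rab1a, Rab7 and Rab25 are the highest genes, and Rab4a, Rab27a, Rab27b and Rab15 show tumour groups to the left of the adjacent groups.

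Of the 59 genes, 51 reached 1 FPKM or more in 3 or more libraries and were tested. The 8 below that filter were Rab36, Rab39, Rab39b, Rab3c, Rab40b, Rab42, Rab6b and Rab9b, none of which exceeded 1.26 FPKM in any library. Rab38 and Rab44 reached 1 FPKM in all 6 tumour libraries and in 0 adjacent ones, so they passed the filter only through the tissue in which they were high. Tests were made with limma on log2(FPKM + 1), and a gene was called at a Benjamini-Hochberg adjusted p below 0.05 over all 16970 genes.

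The comparison of tumour with adjacent colon asked how these genes differ in tumours of each genotype. In flox tumours 8 Rab genes rose and 21 fell, 29 of 51, where limma called 36.3% of all tested genes, 16.6% higher and 19.7% lower. That count depends on single libraries: leaving out 1 gave 16 to 28 called and 10 to 19 lower, with 10 lower without adjacent library 2 and 12 without adjacent library 3, tumour library 1 or tumour library 2. In ΔIEC tumours 5 rose and 11 fell, 16 of 51, against 29.4% of all genes, 13.9% higher and 15.5% lower. There, leaving out 1 library gave 10 to 15 called, with 6 lower without adjacent library 3, 7 without adjacent library 1 or tumour library 1 or 3, and 3 higher without tumour library 1. For the fits that left out 1 library, the share of all genes called was not computed. The median Rab difference was -0.23 in flox and -0.18 in ΔIEC tumours, where the medians of all tested genes were -0.01 and -0.03. After rescaling, 17 rose and 5 fell in flox tumours, where 55.1% of the tested protein-coding genes were called, 43.9% higher and 11.2% lower. In ΔIEC tumours 12 then rose and 6 fell, where 40.7% were called, 31.1% higher and 9.54% lower. The Rab medians were then 0.21 and 0.09, and those of the protein-coding genes 0.39 and 0.26. With quantile normalization the Rab medians were -0.057 and -0.060, and those of all tested genes 0.013 and 0.003. The median of the Rab genes varied between replicates with an SD of 0.0705. Thus the number of Rab genes called lower depends on the scale. The Rab medians lay below those of the genes fitted with them each time, but by little with quantile normalization.

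Groups did not overlap for 10 Rab genes higher and 24 lower in flox tumours, compared with 26.4% and 27.1% of all genes, and for 10 higher and 21 lower in ΔIEC tumours, compared with 20.8% and 22.9%. All 5 rises and 11 falls called in ΔIEC tumours were also called in flox tumours, where they made up 62.5% of the rises and 52.4% of the falls. The genotypes were fitted in 1 model with a shared estimate of spread. How often calls were shared between genotypes or scales among all tested genes was not computed. On both scales and in both genotypes, Rab4a, Rab27a, Rab27b, Rab15 and Rab37 fell, and Rab31, Rab23, Rab26 and, of the genes that passed the filter through tumours alone, Rab38 and Rab44 rose. Flox adjacent library 1 and ΔIEC adjacent libraries 2 and 3 had the highest fibroblast and the lowest absorptive colonocyte marker levels of the adjacent libraries. Without them, 9 rose and 20 fell in flox tumours, and the share of all genes called in that fit was not computed. It left 1 ΔIEC adjacent library, so its calls for ΔIEC tumours are not given.

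**Figure D2:**
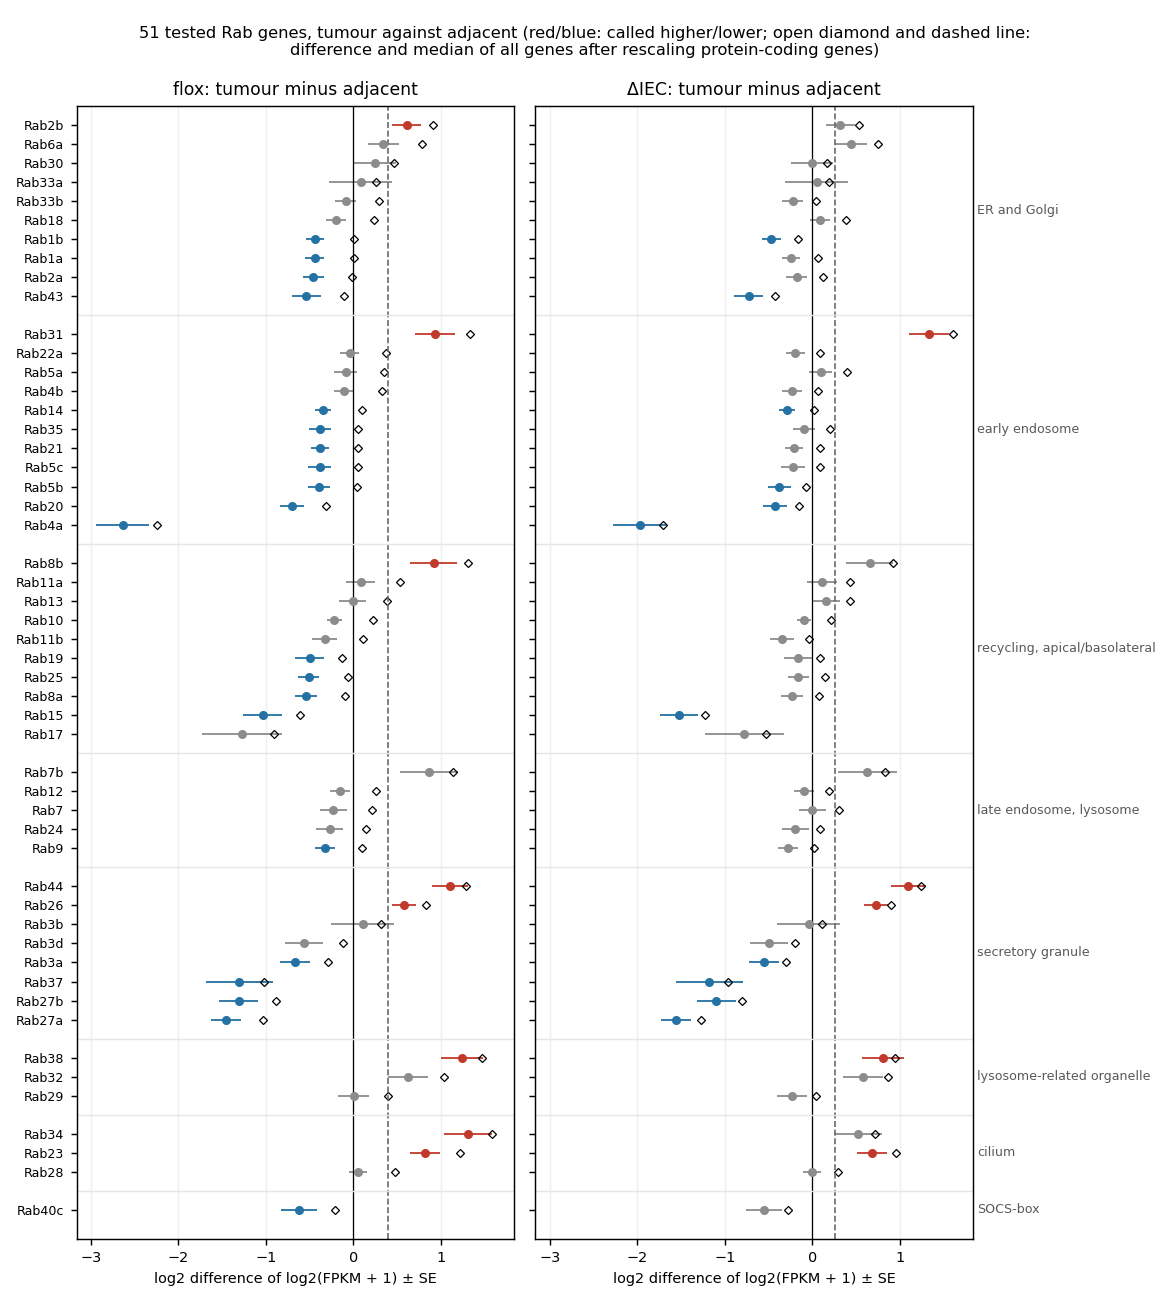
Tumour-minus-adjacent difference of log2(FPKM + 1) with its standard error (x axis) for the 51 tested Rab genes in flox (left) and ΔIEC mice (right). Red and blue points are genes called higher and lower, and grey points were not called. Open diamonds give the difference after rescaling and the dashed line the median of all tested protein-coding genes on that scale. Rab4a has the most negative difference, -2.64 and -1.97, and 36 of 51 diamonds in flox and 37 in ΔIEC mice lie above 0.

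Bulk RNA cannot tell fewer cells of a type from less RNA per cell, and the makeup of the samples differed. Summed epithelial markers, such as Epcam and Krt8, were 5890 to 10190 FPKM in adjacent libraries and 4256 to 6071 in tumours, so the labelled epithelium was present in all 12. Goblet cell markers, with Muc2, were 19280 to 52690 against 1779 to 5640 FPKM, absorptive colonocyte markers 1564 to 8006 against 106 to 247, and enteroendocrine markers 185 to 349 against 9.0 to 69.1. Fibroblast markers were 44.6 to 247 against 276 to 581 FPKM, neutrophil markers 6.37 to 196 against 168 to 648 and macrophage markers 30.8 to 144 against 93.1 to 178. No marker of these lists was at 0 in every library. Epithelial markers were called lower for 9 of 10 genes in flox and 3 of 10 in ΔIEC tumours. Goblet markers were called lower for 6 of 7 genes in flox and 7 of 7 in ΔIEC tumours, and neutrophil markers higher for 4 of 5 in each. Squamous epithelial markers were 0.805 to 4.34 FPKM in adjacent libraries, 380, 344 and 22.3 in flox and 16.5 to 36.7 in ΔIEC tumours, so flox tumour libraries 1 and 2 stood apart, and 4 of 4 tested were called higher in flox and 2 in ΔIEC tumours. Without those 2 libraries, which leaves 1 flox tumour that is assumed to vary like the other groups, 2 Rab genes rose and 3 fell in flox tumours, where 11.9% of all genes were called. The Rab genes still called were Rab4a, Rab27a and Rab27b, lower, and Rab23 and Rab44, higher. Mast cell markers were 838 FPKM in ΔIEC tumour library 2 and 12.2 to 138 in the other libraries. The part of sample makeup in the Rab differences below was not tested.

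Among early endosomal Rabs, 1 of 11 rose and 7 fell in flox tumours, and 1 rose and 4 fell in ΔIEC tumours. Of all tested genes, limma called 16.6% higher and 19.7% lower in flox, and 13.9% and 15.5% in ΔIEC tumours. The medians of these Rabs were -0.38 and -0.22, and 0.06 and 0.09 after rescaling. Then 4 were higher and 1 lower in flox and 2 higher and 1 lower in ΔIEC tumours. The shares of protein-coding genes were then 43.9% and 11.2%, and 31.1% and 9.54%. No role group was tested against such shares. Rab4a (ENSMUSG00000019478, GRCm38 chromosome 8, 123805985 to 123835287), which returns receptors quickly from early endosomes to the surface, measured 19.8, 29.5 and 27.5 FPKM in flox adjacent, 23.8, 15.3 and 15.1 in ΔIEC adjacent, 3.55, 2.79 and 3.37 in flox tumour and 2.18, 3.36 and 6.78 in ΔIEC tumour libraries. Every tumour library was below every adjacent library. The mean fell from 25.6 ± 5.12 to 3.24 ± 0.398 FPKM in flox mice (SD, n = 3), and from 18.1 ± 4.99 to 4.11 ± 2.39 in ΔIEC mice. The log2 differences were -2.64 ± 0.302 (SE) and -1.97 ± 0.302, with limma adjusted p of 4.12e-04 and 0.00203, and -2.25 and -1.70 after rescaling. All 3 annotated Rab4a transcripts had lower values in tumours, the main coding transcript, with 81.7% of the gene's level, running from 11.3 to 24.7 FPKM in adjacent and from 1.97 to 5.91 in tumour libraries. Leaving out any library in turn kept both calls.

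Its paralog Rab4b did not pass the test in either genotype, at differences of -0.11 and -0.23, and 0.33 and 0.07 after rescaling. The ratio of Rab4a to Rab4b does not depend on how a library is scaled. It was 0.835 to 1.06 in flox adjacent and 0.591 to 0.750 in ΔIEC adjacent libraries, and 0.104 to 0.143 and 0.0943 to 0.288 in the tumours. Tumour ratios were below all adjacent ratios in both genotypes, and within adjacent tissue the ΔIEC ratios were below the flox ratios with no overlap. Of 11 paralog ratios computed, this one and Rab27a to Rab27b were the 2 without overlap between genotypes in adjacent tissue. In tumours 0 were without overlap. The 11 pairs were picked by hand, and no share over other gene pairs was computed to set the 2 against. Within ΔIEC adjacent tissue the lowest Rab4a to Rab4b ratios, 0.5907 and 0.5985, were in libraries 2 and 3, which also had high fibroblast and low absorptive colonocyte markers. The part of these markers and the genotype differences of the ratios were not tested. Rab4a overlaps a same-strand readthrough locus, Gm20388, whose level averaged 9.58 FPKM, and the authors' counting could have split fragments between the loci.

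Rab31, which carries cargo between the trans-Golgi network and endosomes, measured 7.10, 5.95 and 4.65 FPKM in flox adjacent, 3.36, 5.09 and 6.31 in ΔIEC adjacent, 11.9, 10.5 and 14.1 in flox tumour and 16.5, 10.2 and 15.0 in ΔIEC tumour libraries. All tumour libraries were above all adjacent ones. Its differences were 0.94 ± 0.231 and 1.34 ± 0.231 (limma adjusted p 0.0110 and 0.00312), and leaving out any library kept both calls. Relative to its paralog Rab22a, Rab31 was at 0.270 to 0.600 in adjacent and 0.977 to 1.72 in tumour libraries.

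Rab20, a phagosome Rab, measured 10.7, 10.6 and 8.76 FPKM in flox adjacent, 9.89, 8.79 and 9.87 in ΔIEC adjacent, 5.95, 4.68 and 6.77 in flox tumour and 7.69, 6.05 and 6.81 in ΔIEC tumour libraries. The tissues did not overlap. Rab20 fell at -0.70 and -0.42 (limma adjusted p 0.00396 and 0.0434), and kept its sign after rescaling, at -0.31 and -0.15, without passing the test there. Its flox call was kept in 6 of 6 fits that left out a library, and its ΔIEC call in 1 of 6, with an adjusted p up to 0.134.

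The Rab5 isoforms drive early endosome fusion. Rab5c, the most abundant early endosomal Rab, measured 70.9, 89.4 and 76.3 FPKM in flox adjacent, 82.4, 68.7 and 72.3 in ΔIEC adjacent, 56.7, 52.8 and 71.7 in flox tumour and 65.1, 60.3 and 65.7 in ΔIEC tumour libraries. Flox tumour library 3 lay inside the adjacent range. Rab5c fell in flox tumours at -0.39 (limma adjusted p 0.0464), which became 0.06 after rescaling, and was at -0.22, or 0.09, in ΔIEC tumours. Rab5b fell in both genotypes (-0.39 and -0.37) on the deposited scale, but its difference was 0.04 and -0.07 after rescaling. Rab5a was at -0.08 and 0.10 before and 0.35 and 0.40 after rescaling, called higher in both only on the second scale. Rab14, which links the Golgi with endosomes, measured 70.1, 73.9 and 74.2 FPKM in flox adjacent, 71.5, 60.6 and 67.4 in ΔIEC adjacent, 57.2, 56.1 and 57.9 in flox tumour and 58.5, 55.2 and 49.1 in ΔIEC tumour libraries. All tumour values were below all adjacent ones, by a small margin. It fell at -0.34 and -0.29 and was at 0.10 and 0.02 after rescaling. Rab21 and Rab35, both of endosomal recycling, fell in flox tumours, each at -0.38, and were at 0.05 and 0.06 after rescaling. Of these smaller falls, those of Rab5b were kept in 1 of 6 fits that left out a library in each genotype, those of Rab14 in 2 of 6 in each, and those of Rab5c, Rab21 and Rab35 in 2, 3 and 1 of 6 in flox mice.

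Secretory granule Rabs had the lowest median of the role groups with more than 1 tested gene, -0.61 in flox and -0.53 in ΔIEC tumours, and -0.20 and -0.24 after rescaling. Of 8 tested, 2 rose and 4 fell in each genotype. The shares of all tested genes were 16.6% higher and 19.7% lower in flox, and 13.9% and 15.5% in ΔIEC tumours. After rescaling, 2 granule Rabs were higher and 3 lower in each genotype. The shares of protein-coding genes were then 43.9% and 11.2% in flox, and 31.1% and 9.54% in ΔIEC tumours. The summed level of the granule Rabs was 107 to 133 FPKM in adjacent libraries and 55.4 to 82.0 in tumours. The fallers include Rab27a and Rab27b, paralogs that dock secretory granules at the plasma membrane.

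Rab27a measured 24.7, 26.1 and 19.9 FPKM in flox adjacent, 35.9, 27.1 and 24.4 in ΔIEC adjacent, 7.29, 8.16 and 8.37 in flox tumour and 7.73, 8.55 and 11.3 in ΔIEC tumour libraries. No tumour library reached the lowest adjacent one. Its differences were -1.45 ± 0.172 and -1.56 ± 0.172, with limma adjusted p of 4.38e-04 and 7.95e-04, and -1.04 and -1.27 after rescaling. Rab27b measured 25.1, 32.5 and 25.8 FPKM in flox adjacent, 30.3, 24.6 and 21.1 in ΔIEC adjacent, 10.8, 13.7 and 7.93 in flox tumour and 8.30, 13.5 and 12.4 in ΔIEC tumour libraries. Again the tissues did not overlap, and the differences were -1.31 ± 0.223 and -1.10 ± 0.223 (limma adjusted p 0.00187 and 0.00612), or -0.88 and -0.80 after rescaling. Leaving out any library kept all 4 calls of the pair. The Rab27a to Rab27b ratio was 0.771 to 0.985 in flox adjacent and 1.10 to 1.18 in ΔIEC adjacent libraries, without overlap. It was 0.595 to 1.06 in flox and 0.632 to 0.931 in ΔIEC tumours, which overlapped. Goblet and enteroendocrine markers, of cells that secrete from granules, were lower in the same tumours by the values above, and their part in the Rab27 falls was not tested.

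Rab37, a Rab of secretory granules in endocrine and mast cells, measured 1.50, 5.34 and 6.08 FPKM in flox adjacent, 6.02, 2.88 and 2.81 in ΔIEC adjacent, 1.11, 0.532 and 1.32 in flox tumour and 0.933, 1.20 and 1.13 in ΔIEC tumour libraries. The highest tumour library, at 1.32, lay just below the lowest adjacent one, at 1.50. The differences were -1.30 ± 0.380 and -1.17 ± 0.380 (limma adjusted p 0.0230 and 0.0410). The call was lost in flox mice without adjacent library 2 or 3 or tumour library 1 or 2, and in ΔIEC mice without adjacent library 1 or 3 or any tumour library, with adjusted p up to 0.0883 and 0.136. Flox adjacent library 1, low for Rab37 among its group, and ΔIEC adjacent libraries 2 and 3 were also the adjacent libraries with the highest fibroblast markers. Their absorptive colonocyte markers were the lowest, at 2398, 1564 and 2063 FPKM against 5439 to 8006 in the other adjacent libraries. The part of either marker list in the Rab37 spread was not tested. Rab37 overlaps Cd300lf on the opposite strand; the libraries are strand-specific, but whether counting used the strand is not given in the sources used here.

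Rab3a, which acts on vesicles in regulated exocytosis, measured 7.59, 6.19 and 5.95 FPKM in flox adjacent, 5.36, 6.27 and 7.32 in ΔIEC adjacent, 4.02, 3.93 and 3.39 in flox tumour and 2.89, 4.60 and 4.58 in ΔIEC tumour libraries. The tissues did not overlap. It fell at -0.66 and -0.55 (limma adjusted p 0.0137 and 0.0346), and was at -0.29 and -0.30 after rescaling without passing the test. Rab3a overlaps the more abundant Mpv17l2 on the opposite strand, at a mean of 18.7 FPKM. Rab3d, a Rab of exocrine granules, measured 50.3, 56.6 and 52.6 FPKM in flox adjacent, 53.0, 68.5 and 47.3 in ΔIEC adjacent, 27.3, 47.0 and 35.5 in flox tumour and 30.3, 40.9 and 48.1 in ΔIEC tumour libraries. ΔIEC tumour library 3 lay inside the adjacent range, and neither difference passed the test (-0.56 and -0.50, limma adjusted p 0.0678 and 0.110).

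Rab26 and Rab44 went the other way. Rab44, a large Rab found in leukocyte granules, measured 0.396, 0.260 and 0.0143 FPKM in flox adjacent, 0.186, 0.716 and 0.279 in ΔIEC adjacent, 1.43, 1.46 and 1.98 in flox tumour and 2.51, 1.91 and 1.50 in ΔIEC tumour libraries. Every tumour library was above every adjacent one. Neutrophil markers were 168 to 648 FPKM in these tumours against 6.37 to 196, and their part in the Rab44 rise was not tested. Rab44 had differences of 1.11 ± 0.202 and 1.10 ± 0.202 (limma adjusted p 0.00258 and 0.00409), in a test it entered through the tumours alone. With no filter its adjusted p were 0.00411 and 0.00643. Rab26, a Rab of secretory granule maturation, measured 1.03, 0.766 and 0.848 FPKM in flox adjacent, 0.683, 1.17 and 1.04 in ΔIEC adjacent, 1.89, 1.62 and 1.95 in flox tumour and 2.42, 2.12 and 2.15 in ΔIEC tumour libraries. The tissues did not overlap. Rab26 had differences of 0.58 ± 0.137 and 0.73 ± 0.137 (limma adjusted p 0.00876 and 0.00451). A retained-intron transcript held 56.2% of the Rab26 level, and the main coding transcript stayed between 0.138 and 0.559 FPKM in all 12 libraries. Rab26 overlaps the more abundant Traf7 on the same strand, at a mean of 48.9 FPKM, and Rab26os on the other, so its value is uncertain.

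**Figure D3:**
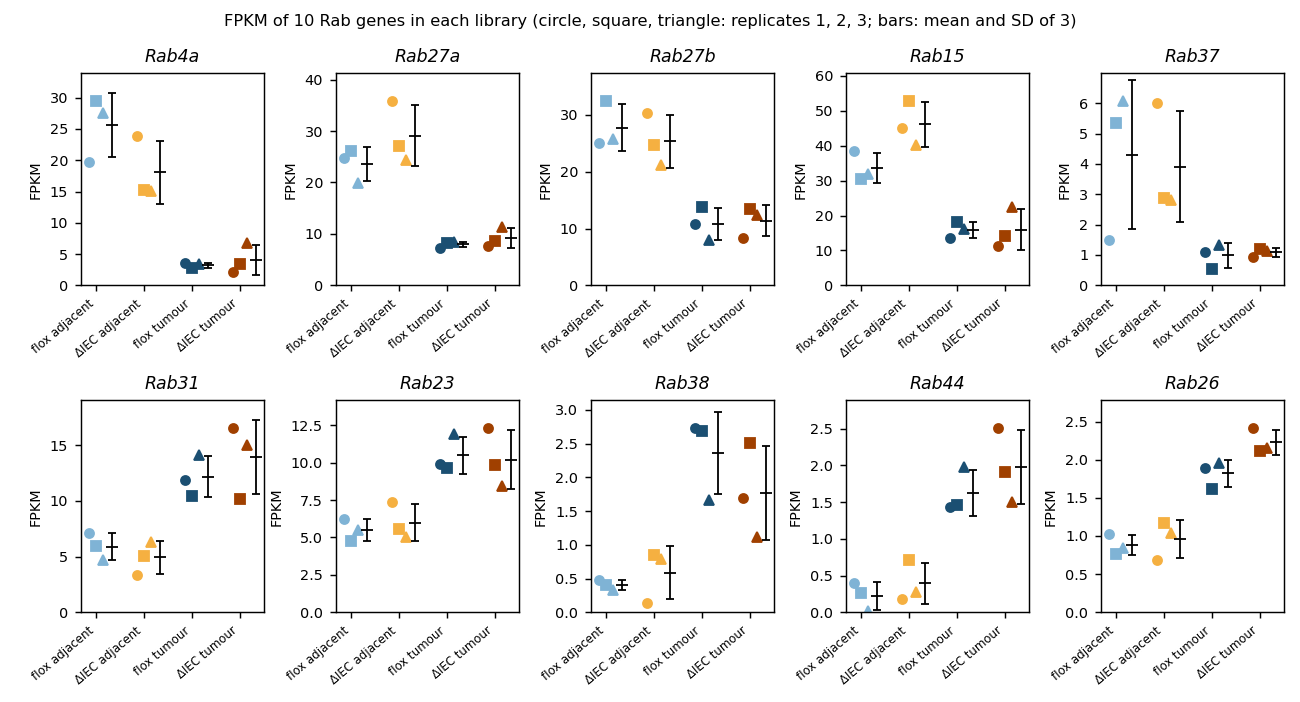
FPKM of the 10 Rab genes called in the same direction in both genotypes and on both scales, 1 panel per gene, with each library as a point (y axis, linear from 0), replicate number by symbol, and the mean and SD of 3 libraries beside the points. In the upper row (Rab4a, Rab27a, Rab27b, Rab15, Rab37) every tumour point lies below every adjacent point, and in the lower row (Rab31, Rab23, Rab38, Rab44, Rab26) every tumour point lies above.

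Recycling and apical or basolateral Rabs, the most abundant group, had 1 gene higher and 4 lower of 10 in flox tumours and 1 lower in ΔIEC tumours. The shares of all tested genes were 16.6% higher and 19.7% lower in flox, and 13.9% and 15.5% in ΔIEC tumours. The medians of these Rabs were -0.41 and -0.16, and 0.02 and 0.12 after rescaling. Then 3 were higher and 1 lower in flox and 2 higher and 1 lower in ΔIEC tumours. The shares of protein-coding genes were then 43.9% and 11.2%, and 31.1% and 9.54%. Epithelial markers were called lower for 9 of 10 genes in flox and 3 of 10 in ΔIEC tumours. Their summed levels overlapped between the tumours, at 4256 to 5909 and 5092 to 6071 FPKM, and 0 were called between the genotypes. The part of these markers in the differences of the recycling Rabs was not tested. Rab15, which slows endocytic recycling, measured 38.5, 30.6 and 31.9 FPKM in flox adjacent, 45.2, 52.9 and 40.3 in ΔIEC adjacent, 13.5, 18.1 and 16.2 in flox tumour and 11.1, 14.1 and 22.5 in ΔIEC tumour libraries. The tissues did not overlap in either genotype, and the ΔIEC adjacent libraries were all above the flox adjacent ones. Its differences were -1.04 ± 0.221 and -1.52 ± 0.221 (limma adjusted p 0.00558 and 0.00168), or -0.61 and -1.23 after rescaling, and every fit that left out 1 library kept the calls. Without flox tumour libraries 1 and 2 the flox call was lost (-1.01, limma adjusted p 0.0828). Rab15 overlaps Fntb on the opposite strand, at a mean of 6.32 FPKM.

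Rab11a, the recycling-endosome Rab, measured 173, 206 and 164 FPKM in flox adjacent, 185, 163 and 159.7 in ΔIEC adjacent, 199, 151 and 232 in flox tumour and 215, 159.6 and 179 in ΔIEC tumour libraries. The groups overlapped, with differences of 0.08 and 0.12, which were 0.53 and 0.43 and called higher after rescaling. Rab25, the epithelial member of the Rab11 family, measured 146, 126 and 113 FPKM in flox adjacent, 111, 118 and 109.6 in ΔIEC adjacent, 79.2, 98.8 and 91.2 in flox tumour and 95.7, 100.3 and 107 in ΔIEC tumour libraries. Tumour values were below adjacent values in each genotype. It fell in flox tumours (-0.51 ± 0.118, limma adjusted p 0.00850) and was at -0.06 after rescaling. In ΔIEC tumours it was at -0.16, or 0.15 after rescaling. The ratio of Rab25 to Rab11a overlapped between the tissues, at 0.602 to 0.843 in adjacent and 0.393 to 0.655 in tumour libraries.

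Rab8a, which delivers cargo to the apical surface, measured 87.8, 101 and 76.2 FPKM in flox adjacent, 78.8, 80.2 and 87.1 in ΔIEC adjacent, 57.5, 56.8 and 65.7 in flox tumour and 78.4, 63.7 and 67.5 in ΔIEC tumour libraries. Flox tumours did not overlap with flox adjacent tissue. ΔIEC tumour library 1, at 78.4, lay just below the lowest ΔIEC adjacent library, at 78.8, and above flox adjacent library 3, at 76.2. Rab8a fell in flox tumours at -0.54 ± 0.124 (limma adjusted p 0.00784) and was at -0.10 after rescaling. Its paralog Rab8b measured 5.39, 4.67 and 3.82 FPKM in flox adjacent, 3.27, 7.82 and 8.59 in ΔIEC adjacent, 10.9, 8.0 and 10.1 in flox tumour and 11.8, 9.23 and 9.83 in ΔIEC tumour libraries. It was higher in ΔIEC adjacent libraries 2 and 3 than in the other adjacent ones. Rab8b rose in flox tumours at 0.92 ± 0.272 (adjusted p 0.0242), a call kept in 2 of 6 fits that left out a library. The Rab8b to Rab8a ratio was 0.0464 to 0.0613 in flox adjacent, 0.0414 to 0.0986 in ΔIEC adjacent, 0.141 to 0.189 in flox tumour and 0.145 to 0.150 in ΔIEC tumour libraries, so all tumour ratios were above all adjacent ones. Rab17, an epithelial Rab of transcytosis, measured 3.90, 11.2 and 10.4 FPKM in flox adjacent, 10.5, 2.46 and 3.98 in ΔIEC adjacent and 1.90 to 3.57 in the tumour libraries. The same adjacent libraries were low as for Rab37, and the differences of -1.27 and -0.78 did not pass the test (limma adjusted p 0.0503 and 0.221).

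**Figure D4:**
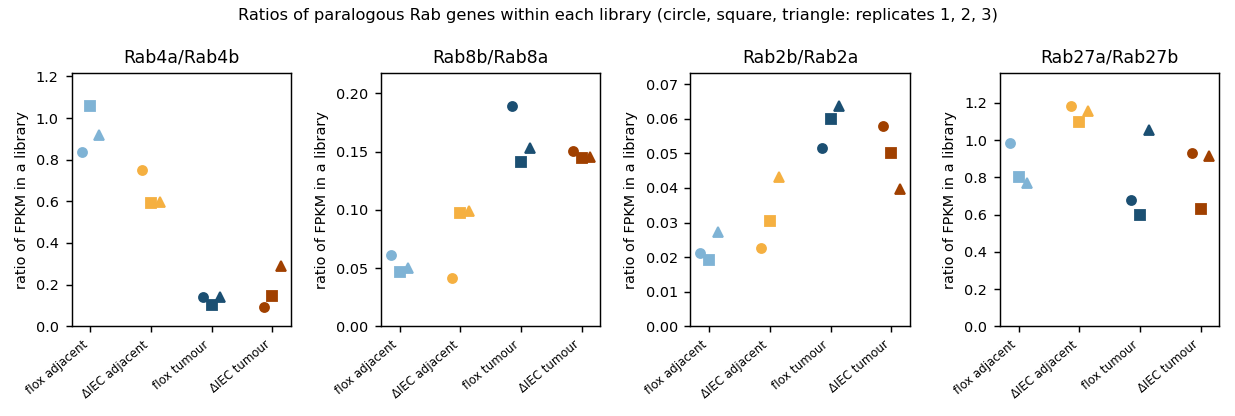
Ratio of the FPKM of paralogous Rab genes within each library (y axis, linear from 0), 1 point per library by group, with replicate number by symbol. The Rab4a to Rab4b ratio falls from 0.591 or more in adjacent libraries to 0.288 or less in tumours. The Rab8b to Rab8a ratio is higher in every tumour library. The Rab27a to Rab27b ratio is higher in ΔIEC than in flox adjacent libraries, a difference that was not tested.

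Rabs of the endoplasmic reticulum and Golgi, the group closest to TRAPP, had 1 gene higher and 4 lower of 10 in flox tumours and 2 lower in ΔIEC tumours. The shares of all tested genes were 16.6% higher and 19.7% lower in flox, and 13.9% and 15.5% in ΔIEC tumours. The medians of these Rabs were -0.14 and -0.09, and 0.25 and 0.15 after rescaling. Then 2 were higher and 0 lower in flox and 3 higher and 1 lower in ΔIEC tumours. The shares of protein-coding genes were then 43.9% and 11.2%, and 31.1% and 9.54%. With quantile normalization 1 of these Rabs was higher and 0 lower in flox tumours, where 3091 of 16970 genes were higher and 2982 lower. Rab1a, on the route from the endoplasmic reticulum to the Golgi, measured 129, 137 and 136 FPKM in flox adjacent, 137, 124 and 112 in ΔIEC adjacent, 98.7, 90.2 and 107 in flox tumour and 109, 95.8 and 109 in ΔIEC tumour libraries. The tumour libraries were below the adjacent ones in each genotype. It fell in flox tumours (-0.44 ± 0.107, limma adjusted p 0.0101), whereas -0.24 in ΔIEC tumours did not pass the test, and both were close to 0 after rescaling, at 0.01 and 0.07. Rab1b fell in both at -0.44 and -0.47, or 0.00 and -0.16 after rescaling. Rab6a, of transport within the Golgi, measured 60.0, 56.3 and 50.2 FPKM in flox adjacent, 47.7, 45.0 and 46.1 in ΔIEC adjacent, 70.4, 65.8 and 76.2 in flox tumour and 89.8, 51.9 and 54.3 in ΔIEC tumour libraries. Tumours were higher without overlap in each genotype, but 0.35 and 0.44 did not pass the test (limma adjusted p 0.157 and 0.0880), while 0.79 and 0.75 did after rescaling.

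Rab2a, of the route between Golgi and endoplasmic reticulum, fell in flox tumours at -0.46, or -0.01 after rescaling, and its paralog Rab2b rose there at 0.61 ± 0.170 (limma adjusted p 0.0190). Rab2b measured 1.31, 1.33 and 1.83 FPKM in flox adjacent, 1.48, 1.91 and 2.29 in ΔIEC adjacent, 2.58, 2.72 and 3.08 in flox tumour and 3.41, 2.32 and 2.17 in ΔIEC tumour libraries. The call was kept in 3 of 6 fits that left out a library. Rab2b overlaps the more abundant Tox4 on the opposite strand, at a mean of 17.0 FPKM. Rab43, a Golgi Rab, measured 29.2, 49.0 and 42.2 FPKM in flox adjacent, 40.5, 33.4 and 35.0 in ΔIEC adjacent, 26.3, 26.1 and 27.9 in flox tumour and 22.0, 19.7 and 22.8 in ΔIEC tumour libraries. Flox adjacent library 1 was close to the tumours. Rab43 fell in both, at -0.54 and -0.73, and was at -0.10 and -0.43 after rescaling, passing the test there in ΔIEC but not in flox tumours. Its flox call was kept in 1 of 6 fits that left out a library, with an adjusted p up to 0.106, and its ΔIEC call in 6 of 6. The interaction test called no gene, Rab43 included.

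Among late endosomal and lysosomal Rabs, 1 of 5 tested fell in flox tumours, where 19.7% of all tested genes were called lower. It was Rab9, which returns receptors to the trans-Golgi network. Rab9 measured 19.7, 22.5 and 19.7 FPKM in flox adjacent, 21.0, 16.2 and 17.3 in ΔIEC adjacent, 17.4, 15.3 and 16.2 in flox tumour and 15.8, 13.7 and 14.7 in ΔIEC tumour libraries. Its flox difference of -0.32 was called (limma adjusted p 0.0454), in 0 of 6 fits that left out a library, and was 0.10 after rescaling. limma called 0 of the late endosomal and lysosomal Rabs in ΔIEC tumours, against 29.4% of all tested genes, and 1 had an unadjusted p below 0.05. After rescaling, all 5 had differences above 0 in both genotypes, with 1 called higher in flox and 0 in ΔIEC tumours. Of protein-coding genes, 43.9% and 31.1% were then called higher. Rab7, the main late endosomal Rab, measured 105, 121 and 112 FPKM in flox adjacent, 109, 105 and 119 in ΔIEC adjacent, 88.8, 80.1 and 123 in flox tumour and 121, 98.7 and 115 in ΔIEC tumour libraries. The tissues overlapped in both genotypes.

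Of 3 Rabs of lysosome-related organelles, Rab38 rose in both genotypes. Rab38, known from melanosomes, measured 0.480, 0.407 and 0.325 FPKM in flox adjacent, 0.131, 0.848 and 0.785 in ΔIEC adjacent, 2.74, 2.69 and 1.66 in flox tumour and 1.70, 2.51 and 1.12 in ΔIEC tumour libraries. All tumour values were above all adjacent ones (1.24 ± 0.244 and 0.81 ± 0.244, limma adjusted p 0.00372 and 0.0314), in a test it entered through the tumours alone. With no filter its adjusted p were 0.00665 and 0.0508, which ends the ΔIEC call. That call was also lost without adjacent library 1 or tumour library 1 or 2, with an adjusted p up to 0.108. Rab32, its close relative, measured 12.8, 10.6 and 6.92 FPKM in flox adjacent, 8.66, 11.5 and 12.5 in ΔIEC adjacent, 17.1, 12.5 and 17.9 in flox tumour and 20.8, 13.7 and 16.1 in ΔIEC tumour libraries. Its 0.63 and 0.58 did not pass the test (limma adjusted p 0.0574 and 0.0828), while 1.04 and 0.87 did after rescaling. Rab29, a partner of the kinase Lrrk2, overlapped between all groups at 5.62 to 9.36 FPKM.

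Rab23, a cilium-related inhibitor of Hedgehog signalling, measured 6.22, 4.75 and 5.53 FPKM in flox adjacent, 7.39, 5.55 and 5.02 in ΔIEC adjacent, 9.91, 9.61 and 11.9 in flox tumour and 12.3, 9.86 and 8.41 in ΔIEC tumour libraries. All tumour libraries were above all adjacent ones. Its differences were 0.82 ± 0.170 and 0.68 ± 0.170 (limma adjusted p 0.00479 and 0.0145), although retained-intron transcripts made up most of its level and the ΔIEC call was lost when only protein-coding transcripts were summed. Without ΔIEC tumour library 1 that call was also lost, at an adjusted p of 0.0584. Rab34, which acts in cilium formation, measured 1.26, 0.557 and 0.687 FPKM in flox adjacent, 0.704, 2.29 and 2.39 in ΔIEC adjacent, 4.48, 3.55 and 2.67 in flox tumour and 2.45, 3.32 and 2.77 in ΔIEC tumour libraries. ΔIEC adjacent libraries 2 and 3 were close to the tumours, and these also had high fibroblast and low absorptive colonocyte markers, whose part was not tested. Rab34 rose in flox tumours (1.31 ± 0.275, limma adjusted p 0.00508), a call kept in 6 of 6 fits that left out a library. In ΔIEC tumours it was at 0.52, which did not pass the test. Rab28, another ciliary Rab, held a narrow range of 12.6 to 16.8 FPKM and was at 0.06 and 0.00, or 0.48, called higher, and 0.29 after rescaling. Rab40c, a SOCS-box Rab that acts with ubiquitin ligases, measured 10.6, 11.5 and 12.4 FPKM in flox adjacent, 11.7, 10.3 and 11.7 in ΔIEC adjacent, 6.71, 9.32 and 5.77 in flox tumour and 5.07, 9.24 and 8.25 in ΔIEC tumour libraries. The tissues did not overlap. It fell in flox tumours at -0.62, or -0.21 after rescaling, a call kept in 1 of 6 fits that left out a library.

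The start regions of members that moved together were examined in RefSeq's promoter table for GRCm38.p6, in which 48 of the 59 genes had 60 windows, read over the 250 bases upstream of each start. Of the 10 genes called on both scales, Rab15, Rab27a, Rab31 and Rab23 had windows and are shown, while Rab4a, Rab27b, Rab37, Rab38, Rab44 and Rab26 are named only. For Rab15, Rab27a and Rab31 the window nearest the start of the main transcript was taken. For Rab23 the gene's first window was taken, 14632 bases from the start of its leading transcript, which held 26.6% of the gene's level. The other Rab23 window, at 14109 bases, is not printed and matched the GC box only, without the E-box. Capitals mark matches to the motifs named below.
Rab15, chr12:76822525-76822774 (minus strand): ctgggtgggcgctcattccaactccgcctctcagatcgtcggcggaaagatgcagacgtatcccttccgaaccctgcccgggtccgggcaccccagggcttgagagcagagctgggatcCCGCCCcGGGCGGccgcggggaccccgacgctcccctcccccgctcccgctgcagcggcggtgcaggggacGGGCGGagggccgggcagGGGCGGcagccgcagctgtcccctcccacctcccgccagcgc
Rab27a, chr9:73044560-73044809 (plus strand): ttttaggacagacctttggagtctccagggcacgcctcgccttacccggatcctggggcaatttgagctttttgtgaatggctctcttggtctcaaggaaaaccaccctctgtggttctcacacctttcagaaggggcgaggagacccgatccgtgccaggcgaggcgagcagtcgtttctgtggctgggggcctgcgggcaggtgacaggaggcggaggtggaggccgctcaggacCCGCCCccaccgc
Rab31, chr17:65772753-65773002 (minus strand): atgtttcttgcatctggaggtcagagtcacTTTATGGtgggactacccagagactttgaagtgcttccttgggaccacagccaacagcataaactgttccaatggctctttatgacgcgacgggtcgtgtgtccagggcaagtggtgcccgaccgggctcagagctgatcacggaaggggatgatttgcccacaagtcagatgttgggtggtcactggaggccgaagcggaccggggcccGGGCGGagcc
Rab23, chr1:33719646-33719895 (plus strand): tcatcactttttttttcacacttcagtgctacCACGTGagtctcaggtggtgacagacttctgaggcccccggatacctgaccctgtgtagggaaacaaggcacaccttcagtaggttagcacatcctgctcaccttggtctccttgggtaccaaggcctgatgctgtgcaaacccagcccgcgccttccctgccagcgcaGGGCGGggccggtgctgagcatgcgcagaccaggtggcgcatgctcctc

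The capitals are the GC box GGGCGG or its reverse complement, present in all 4, the E-box CACGTG in the Rab23 window, and the CDX-type motif TTTATNG in the Rab31 window. Over both strands, GGGCGG was in 66.7% of the Rab windows and 32.7% of all 32851 windows of that length. The median GC content was 60.2% and 52.4%, respectively. A match to TTTATNG can contain the reverse complement of TATAAA, so the shares of these motifs below are not separate. In a Rab7 window the same stretch, TTTATAG, matched both. Matches of other motifs can also share bases. CACGTG was in 8.33% of Rab and 6.02% of all windows, TTTATNG in 8.33% and 9.81%, the AP-1 motif TGANTCA in 3.33% and 6.75% and the ETS motif CCGGAAG in 5% and 6.91%. TATAAA was in 6.67% and 12.4%, and the TCF motif CTTTGAT and the HNF4 motif CAAAGTCCA were in 0 Rab windows and in 3.21% and 0.384% of all. The GC box was thus present in windows of genes that rose and of genes that fell, and a match is a stretch of letters only.

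The comparison of genotypes asked whether loss of Synbindin in the epithelium went with other Rab levels. limma called 0 of 51 Rab genes between ΔIEC and flox in adjacent tissue, and 0 in tumours, where it called 0.0% of all genes in each. At an unadjusted p below 0.05 there were 3 Rab genes in adjacent tissue and 0 in tumours, out of 702 and 317 genes in all. The interaction, which tests whether the tumour difference depends on genotype, called 0 Rab genes and 0.0% of all, with 0 Rab genes and 448 of all genes at an unadjusted p below 0.05. Median Rab differences were -0.06 in adjacent tissue and 0.03 in tumours, or 0.01 and -0.02 after rescaling.

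Rab1a, the TRAPP-linked Rab, had means of 134 ± 4.69 and 124 ± 12.4 FPKM in flox and ΔIEC adjacent tissue and of 98.6 ± 8.34 and 105 ± 7.62 in flox and ΔIEC tumours (SD, n = 3). These are differences of -0.11 ± 0.107 and 0.08 ± 0.107, and the groups overlapped. Rab1b differed by -0.02 and -0.05, and Rab11a, another Rab linked to TRAPP, by -0.09 and -0.06. In adjacent tissue the 3 smallest p among lower genes were those of Rab21 (-0.25 ± 0.105), Rab18 (-0.27 ± 0.115) and Rab10 (-0.17 ± 0.0834), and among higher genes those of Rab30 (0.56 ± 0.241), Rab34 (0.56 ± 0.275) and Rab15 (0.44 ± 0.221), each with a limma adjusted p of 0.931. Groups did not overlap for Rab15, higher, and for Rab21, Rab6a, Rab35 and Rab10, lower, compared with 2.56% of all genes higher and 5.14% lower. Rab30, a Golgi Rab, was called when ΔIEC adjacent library 1 was left out (0.88, limma adjusted p 0.0324), and was the 1 Rab gene called in any fit that left out a library. Its values were 0.958, 0.694 and 0.698 FPKM in flox adjacent and 0.709, 1.85 and 2.73 in ΔIEC adjacent libraries, so ΔIEC library 1 was at the flox level. How many of all genes were called in the fit without that library was not computed. Summed B and plasma cell markers were 1012 and 836 FPKM in ΔIEC adjacent libraries 2 and 3 and 160 to 244 in the other 4 adjacent libraries, and macrophage markers 127 and 144 against 30.8 to 77.1. Their part in the Rab30 difference was not tested.

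In tumours the 3 smallest p among lower genes were those of Rab22a (-0.24 ± 0.110), Rab43 (-0.30 ± 0.164) and Rab11b (-0.20 ± 0.142), and among higher genes those of Rab8a (0.21 ± 0.124), Rab20 (0.21 ± 0.140) and Rab25 (0.18 ± 0.118), each with a limma adjusted p of 1. Rab26 and Rab30, higher, and Rab43, Rab22a, Rab11b and Rab4b, lower, did not overlap between genotypes, compared with 3.03% of all genes higher and 3.74% lower. For the interaction the smallest p were those of Rab25 (0.35 ± 0.167), Rab8a (0.31 ± 0.176) and Rab18 (0.28 ± 0.163) upward and Rab34 (-0.79 ± 0.388), Rab15 (-0.49 ± 0.312) and Rab38 (-0.43 ± 0.345) downward. A limma adjusted p of 1.00 applied to all of these.

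**Figure D5:**
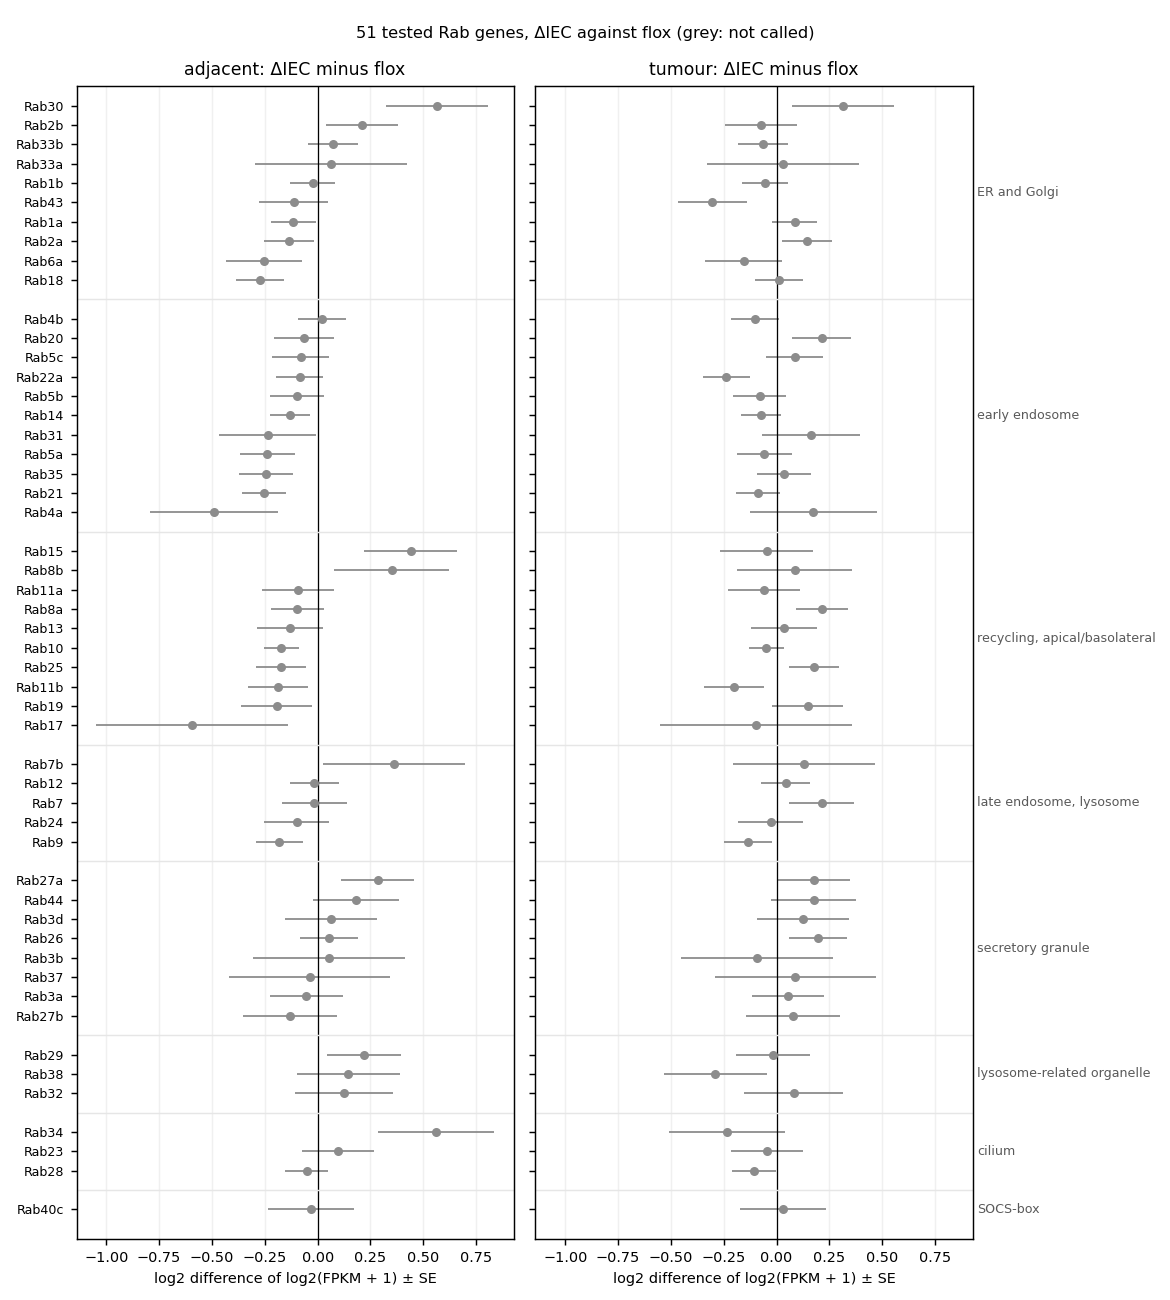
ΔIEC-minus-flox difference of log2(FPKM + 1) with its standard error (x axis) for the 51 tested Rab genes in adjacent tissue (left) and tumours (right), on 1 shared axis. No Rab gene was called in either tissue, and Rab30 and Rab34, each at 0.56 in adjacent tissue, are the farthest to the right.

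The genes that load, switch and read Rabs were taken from 4 lists. For comparison, limma called 16.6% of all tested genes higher and 19.7% lower in flox tumours, and 13.9% and 15.5% in ΔIEC tumours. After rescaling it called 43.9% of protein-coding genes higher and 11.2% lower in flox tumours, and 31.1% and 9.54% in ΔIEC tumours. No list was tested against these shares. Of 9 genes for prenylation and the GDP dissociation inhibitors, which return Rabs to the cytosol, 1 rose and 1 fell in flox tumours and 2 rose in ΔIEC tumours, with medians of 0.13 and 0.10. After rescaling, 6 were higher and 0 lower in flox and 5 higher and 0 lower in ΔIEC tumours, with medians of 0.55 and 0.39. Rabggta, a subunit of the enzyme that prenylates Rabs, rose in both (0.42 and 0.48, limma adjusted p 0.0213 and 0.0141), and Rabggtb, its catalytic partner, rose in ΔIEC tumours (0.40, adjusted p 0.0479). Gdi2 fell in flox tumours at -0.36, or 0.08 after rescaling.

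Among 42 exchange factors outside TRAPP, 3 rose and 6 fell in flox and 3 rose and 7 fell in ΔIEC tumours (medians -0.04 and -0.15). All tested genes were called at 16.6% higher and 19.7% lower in flox and 13.9% and 15.5% in ΔIEC tumours (medians -0.01 and -0.03). After rescaling, 19 exchange factors were higher and 2 lower in flox and 9 higher and 2 lower in ΔIEC tumours (medians 0.36 and 0.11). The shares of protein-coding genes were then 43.9% and 11.2%, and 31.1% and 9.54% (medians 0.39 and 0.26). Dennd5a, which binds Rab6 and activates Rab39, rose in flox tumours from 3.44 ± 1.18 to 15.9 ± 3.17 FPKM (SD, n = 3; 1.95, limma adjusted p 0.00327), and its ΔIEC difference of 1.05 did not pass the test (adjusted p 0.0562). Mon1a, part of the exchange factor of Rab7, fell at -0.88 and -0.71 and kept both calls after rescaling at -0.47 and -0.42. Dennd1b, a Rab35 factor, fell at -1.10 and -0.87, or -0.67 and -0.57 after rescaling.

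Of 37 GTPase-activating proteins, 2 rose and 13 fell in flox and 1 rose and 11 fell in ΔIEC tumours, with medians of -0.18 and -0.24. The shares of all tested genes were 16.6% higher and 19.7% lower in flox and 13.9% and 15.5% in ΔIEC tumours. After rescaling, 10 GTPase-activating proteins were higher and 4 lower in flox and 5 higher and 6 lower in ΔIEC tumours, with medians of 0.23 and 0.02. The shares of protein-coding genes were then 43.9% and 11.2%, and 31.1% and 9.54%. Tbc1d24 fell at -1.52 and -1.42, Grtp1 at -1.25 and -1.14, Tbc1d2, which acts on Rab7, at -1.03 and -0.93, and Tbc1d13, which acts on Rab35, at -0.89 and -0.96, and each kept both calls after rescaling. Of 42 tested effectors from 45 listed, 5 rose and 17 fell in flox and 3 rose and 11 fell in ΔIEC tumours, with medians of -0.31 and -0.29. After rescaling, 12 were higher and 8 lower in flox and 4 higher and 8 lower in ΔIEC tumours, with medians of 0.11 and 0.00. Effectors of Rab27 and Rab3 were among them.

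Sytl4, the granuphilin gene and a Rab27 effector of granule docking, measured 4.41, 12.3 and 10.8 FPKM in flox adjacent, 11.2, 7.44 and 4.77 in ΔIEC adjacent, 1.43, 1.28 and 0.749 in flox tumour and 0.595, 1.29 and 2.18 in ΔIEC tumour libraries. No tumour library reached an adjacent one, and the differences were -2.15 and -1.90 (limma adjusted p 0.00245 and 0.00636). Rph3al, which binds Rab3 and Rab27, fell at -1.51 and -1.47, and Sytl2, another Rab27 effector, from 118 ± 13.3 to 54.5 ± 9.21 FPKM in flox (-1.11) and from 121 ± 43.6 to 52.4 ± 3.91 in ΔIEC mice (-1.14; SD, n = 3). All 3 kept their calls after rescaling. Rab11fip4, a Rab11 effector, fell at -1.33 and -1.46 whereas Rab11fip5, of the same effector family, rose at 1.43 and 1.33, and both kept their calls after rescaling. Goblet and enteroendocrine markers were lower in the same tumours, and their part in the effector differences was not tested.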

How the data were processed

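RNA from 12 libraries was sequenced, and the deposited values are log2(FPKM + 1) per transcript, per the labels and the file's own values. The submitters' processing notes name FastQC, STAR 2.5, Cuffnorm and GRCm38, with no settings. The FPKM normalization of the authors is not given in the sources used here.

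Each of the 12 columns was matched to a library by its description code. Of 123062 transcripts, 118004 (95.9%) matched GENCODE M21 on GRCm38. Their FPKM were summed per gene, giving 48448 genes. The 16970 genes that reached 1 FPKM or more in 3 or more libraries were fitted with limma 3.58.1 in R 4.3.3 on log2(FPKM + 1) (pseudocount 1, eBayes with trend and robust, 4 group means, 8 residual degrees of freedom). P-values were two-sided and Benjamini-Hochberg adjusted within a contrast. The fit was tested on simulated data. Correlation between libraries of a group was 0.912 to 0.962.

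Genes named are up to 10 called members per direction with the largest difference in each tumour contrast, the 2 most abundant members of each role, the 3 smallest p per direction in the other contrasts and up to 4 called genes of each pathway list. Other genes named beside them were chosen after their values were seen. The members and lists were chosen with earlier results of these data known. Alternatives were another pseudocount and filters, quantile normalization, median centring, rescaled protein-coding genes, coding transcripts only, only the groups compared, plain eBayes, replicate blocks and each library left out. A pair of further ones, leaving out 3 adjacent libraries or 2 flox tumours, was chosen after seeing the data.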

Additional observations from a re-analysis of the deposited data

How the results depend on the processing

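Across 76 named results, alternatives other than leaving out 1 library left 810 values on the same side of the threshold with the same direction, while 80 lost a call, 17 gained one and 27 changed sign. Of the values from leaving out 1 library, 416 kept direction and side, 61 lost a call, 6 gained one and 9 changed sign. The cause was not tested except where fewer genes or libraries entered the fit. FPKM carries no depth, so the precision of low genes is not known.

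In flox tumours the number of Rab genes called higher was 3 with a filter at FPKM 5, which tests fewer genes, and 17 with protein-coding genes rescaled. The number called lower was 10 with quantile normalization and 5 after the rescaling. Leaving out 1 library gave 16 to 28 called, 6 to 9 higher and 10 to 19 lower, and leaving out tumour libraries 1 and 2 gave 5 called, 2 higher and 3 lower, with 1 flox tumour left. In ΔIEC tumours the number called was 10 with no filter and 9 with only the groups compared. The number higher was 2 with the filter at FPKM 5, 12 rescaled, 3 with coding transcripts only and 3 with only the groups compared. Counts for ΔIEC tumours without flox adjacent library 1 and ΔIEC adjacent libraries 2 and 3 are not given, because 1 ΔIEC adjacent library was left. The number lower was 6 with no filter, 6 rescaled and 6 with only the groups compared. Leaving out 1 library gave 10 to 15 called, 3 to 6 higher and 6 to 10 lower. Between genotypes it gave 0 to 1 called in adjacent tissue, the 1 being Rab30 without ΔIEC adjacent library 1, and 0 in tumours and for the interaction.

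With the replicate number in the titles as a block, 8 rose and 17 fell in flox tumours, and 5 rose and 7 fell in ΔIEC tumours. With the code in the descriptions as a block they were 8 and 22, and 5 and 11. Libraries with the same code correlated at -0.192 to 0.17 in their deviations, which did not show pairing, and the sources used here do not say whether a code marks 1 animal.

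Signs changed as follows in flox tumours. Quantile normalization gave Rab14 0.0117, Rab29 -0.0321 and Rab7 0.163. Rescaling gave Rab14 0.0985, Rab1a 0.00522, Rab5c 0.0581, Rab7 0.215 and Rab9 0.104. Rab29 was at -0.0391 after median centring, at -0.0371 with coding transcripts only and at -0.000178 without the 3 adjacent libraries. Without flox tumour libraries 1 and 2, Rab29 was at -0.296 and Rab7 at 0.130. Leaving out 1 library gave Rab11a -0.0558 to 0.253, Rab28 -0.0342 to 0.114 and Rab29 -0.159 to 0.158. In ΔIEC tumours, rescaling gave Rab14 0.0184, Rab1a 0.0683, Rab25 0.150, Rab29 0.0440, Rab5c 0.0892, Rab7 0.309 and Rab9 0.0174. Quantile normalization gave Rab25 0.0821 and Rab7 0.252, and median centring gave Rab7 0.00981. Without the 3 adjacent libraries, which left 1 ΔIEC adjacent library, Rab11a was at -0.0130, Rab28 at -0.0285, Rab29 at 0.0198 and Rab7 at 0.0226. Leaving out 1 library gave Rab28 -0.0495 to 0.0558 and Rab7 -0.0639 to 0.0841.

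Rab4a, Rab27a and Rab27b kept their calls in both genotypes under every alternative run, and Rab15 under all but the one without flox tumour libraries 1 and 2, where Rab31, Rab26, Rab37 and Rab38 lost theirs too. Rab37, Rab38 and Rab23 each lost a call under some, including leaving out 1 library, and Rab26 was not tested with coding transcripts only. Rab26, Rab38 and Rab44 stayed below 5 FPKM in every library, so they were not tested with the filter at FPKM 5.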

Other observations

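Among the Rab genes below the expression filter, Rab3c, a Rab of regulated exocytosis, was listed at 0.320 to 1.04 FPKM in the 6 adjacent libraries and at 0.0353 to 0.310 in the 6 tumours, without overlap. It was not tested, because it reached 1 FPKM in too few libraries. Rab9b was listed at 0 to 0.0319 FPKM in adjacent libraries and at 0.0651 to 1.10 in tumours, also without overlap and without a test. Rab6b, a Golgi Rab, ranged from 0.475 to 1.26 FPKM and overlapped between the tissues.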
